A study of Mus musculus with 12 samples.

Results

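In homozygous Eif4g2 mutant intestinal organoids, ribosome footprints on 1 mouse locus stood at 6.54% of the wild-type level on its longest row and at up to 18.3% on its shortest, while its RNA was still present. The locus is a set of 4 neighbouring rows of the deposited count tables, out of 278268 rows in each table. They are transcript ENSMUST00000162415.9 and each row within 25 file rows of it that had at least 200 pooled footprint counts in wild type and a homozygous to wild-type footprint ratio below 0.25. Levels are in CPM, counts per 1000000 counts of the library over transcript groups, which are sets of neighbouring rows with matching counts. The other 3 rows were ENSMUST00000161051.8, ENSMUST00000160132.8 and ENSMUST00000159305.2. The members were chosen by these footprint counts, and the first row had been selected on its fall in footprints relative to RNA between wild type and homozygous mutant, so both assays entered its choice. The differences between those 2 genotypes are therefore given as a description, with no test.

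The study measured RNA-seq and ribosome profiling in small-intestinal organoids of 3 genotypes, Eif4g2+/+ (WT), Eif4g2+/- (Het) and Eif4g2-/- (KO), with 2 libraries per genotype and assay and 12 libraries in all. All organoids, WT included, grew for 3 days in a medium with EGF, R-spondin-1 and Noggin and received 0.5 µM 4-OHT, the active form of tamoxifen, for 24 hours. The labels name no Cre driver, age or sex, and do not say whether the 2 libraries of a genotype came from separate animals or cultures, so each p-value measures only the spread between these libraries. Defining markers of intestinal epithelium were not analysed here, since no table used here pairs transcript IDs with gene names. Library totals over transcript groups ran from 199323 to 555114 counts in RNA-seq and from 2952405 to 13755533 in ribosome profiling. Every KO total in RNA-seq was above every Het total, and every Het total above every WT total, which leaves RNA-seq depth and genotype confounded: they cannot be told apart. In ribosome profiling both KO totals, 13755533 and 9688034, were above every WT and Het total, the highest of which was 8296370. Footprint depth and KO are thus confounded too.

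Ribosome profiling sequences the stretch of mRNA that a ribosome shields from RNase, so the footprints on a coding region follow how many ribosomes sit on it, and RNA-seq gives how much mRNA is there. Eif4g2, also called DAP5, p97 or NAT1, is a translation initiation factor related to the scaffold protein eIF4G that lacks the region binding the cap-binding protein eIF4E. It is known for supporting initiation that does not depend on eIF4E, and its own coding region starts at a GUG codon in place of AUG.

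Whether the locus is Eif4g2 itself is likely but not shown. Each row carries a whole number, here called its length value, whose meaning is not stated. It is taken here as a measure of length, which was not tested. The length value of ENSMUST00000162415.9 was 897, shared by 18 of the 66495 rows that have one. The smallest length value in the tables was -9, in 10 rows, so at least 9 may have been taken off each. Adding 9 back gives 906 for ENSMUST00000162415.9 and 868 for ENSMUST00000161051.8, whose length value was 859, and the mouse Eif4g2 protein is known to be of about the former length. ENSMUST00000160132.8 had a length value of 151 and ENSMUST00000159305.2 of 92. The rows are called below by these numbers, as the 897, 859, 151 and 92 rows. They are treated as isoforms of 1 locus because they are neighbours with like counts, and the files do not state it.

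The 897 row held 1057 and 362 footprint counts in WT, 521 and 723 in the Het libraries, and 120 and 74 in KO. Scaled to the library, these were 127 and 123 CPM in WT, 88.4 and 88.5 in the Het libraries, and 8.72 and 7.64 in KO. The genotypes did not overlap, and the 2 libraries of each lay close together. For WT and KO, the rule chose the rows on these counts. How many of all transcript groups separate in this way was not counted. Here and below, non-overlap of 2 against 2 libraries is therefore only a description. KO footprints were 6.54% of WT by the means, and from 6.00% to 7.11% over the 4 pairs of a KO and a WT library. By counting error alone (Wilson 95% interval), the level was 7.30 to 10.4 CPM in the first KO library and 6.08 to 9.59 in the second. Against Het, KO footprints were 9.25%, from 8.63% to 9.86% over pairs.

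RNA on the 897 row was not low in KO. It rested on 35 and 28 counts in WT, 82 and 57 in the Het libraries and 80 and 92 in KO, which were 153 and 140 CPM in WT, 205 and 201 in the Het libraries and 175 and 166 in KO. Both KO libraries lay above both WT libraries and below both Het libraries. KO RNA was 116% of WT, from 108% to 124% over pairs of libraries. With so few counts, the Wilson 95% interval of a single WT library was as wide as 97.2 to 203 CPM, which covers the levels of both KO libraries. In bulk organoids, fewer cells of a type and less RNA per cell cannot be told apart.

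The footprint to RNA ratio is a measure of ribosomes per mRNA. It was taken between the footprint and RNA-seq libraries of the same number, a pairing that was not taken as shown. On the 897 row the ratio was 0.83 and 0.87 in WT, 0.43 and 0.44 in the Het libraries and 0.050 and 0.046 in KO. It fell in steps over the 3 genotypes with no overlap between libraries. Among transcript groups with at least 20 pooled RNA counts in the genotype, 76.6% of 4269 had a lower ratio than the 897 row in WT, 52.9% of 6693 in Het and 4.56% of 8352 in KO. The row thus stood in the upper part of the range in WT, near the median in Het and near the bottom in KO. These sets of groups differ between genotypes. Their median ratio rose from 0.320 (WT) to 0.398 (Het) and 0.460 (KO), so the places are not on a common scale. Since the row had been selected on its fall in this ratio from WT to KO, its low place in KO restates that choice and tests nothing.

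**Figure D1:**
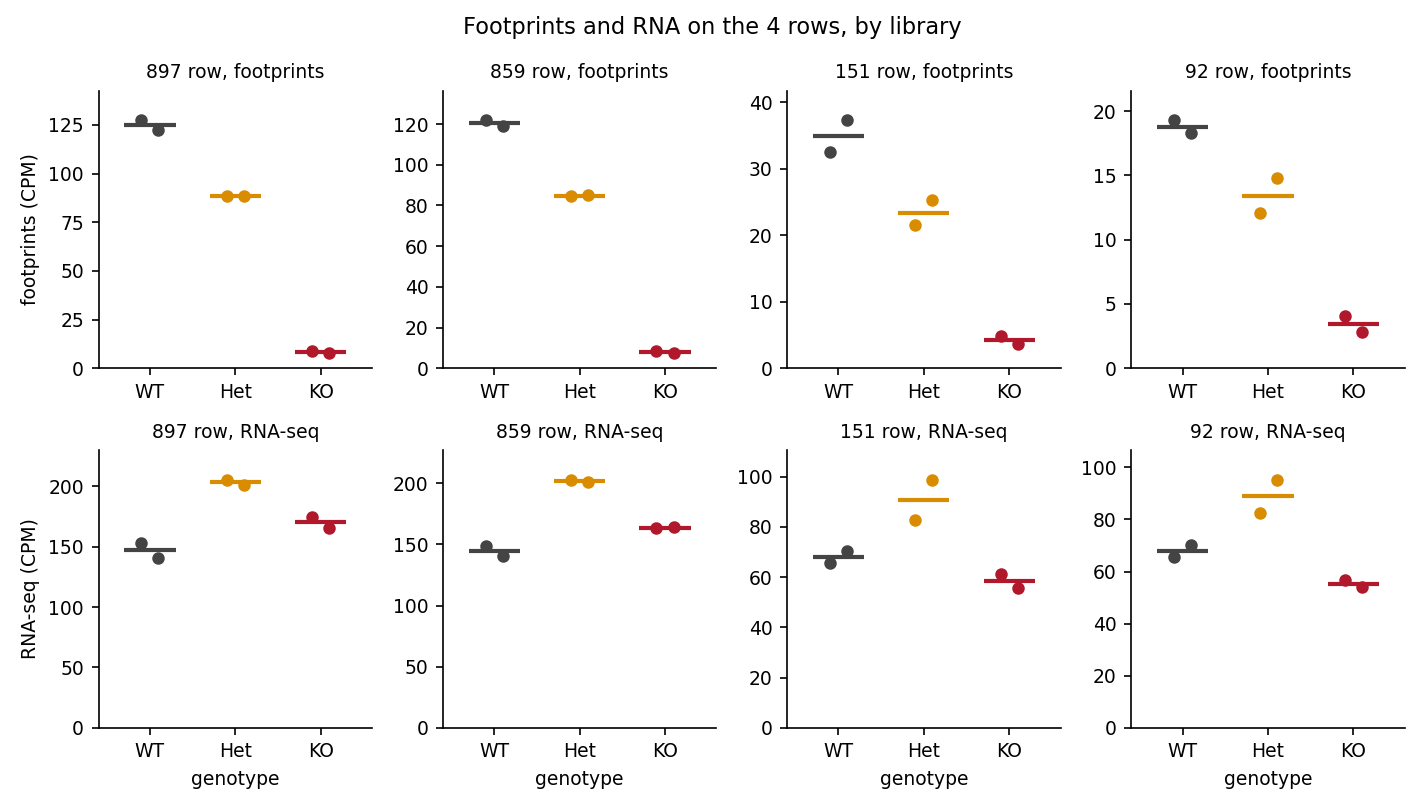
Footprints (top) and RNA (bottom) in CPM on the 4 rows, by genotype, each axis starting at 0; points are libraries and the bar is the mean of 2. Footprints step down from WT to Het to KO on every row, while RNA is highest in Het on every row.

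The 859 row, the other long row, behaved like the 897 row. Its footprints were 122 and 119 CPM in WT, 84.7 and 84.9 in the Het libraries and 8.51 and 7.54 in KO, so that KO stood at 6.65% of WT. Its RNA was 149 and 140 CPM in WT, 203 and 201 in the Het libraries and 164 and 164 in KO. These 2 rows formed 1 transcript group and cannot count as separate evidence. The 897 row had 56 more footprint counts than the 859 row in WT, 51 more in Het and 4 more in KO, for 38 more units of length. If the shorter row lies within the longer, the counts of that extra stretch were 4.47 ± 1.5 CPM in WT, 3.64 ± 0.13 for Het and 0.161 ± 0.081 in KO (SD, n = 2), so the stretch kept 3.60% of its WT level in KO.

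Among the 4 rows, the short ones, the 151 and 92 rows, kept more of their footprints than the long ones. This did not hold for each short row nearby that missed the count minimum. By pooled counts the KO to WT ratio was 0.020 on ENSMUST00000163014.2 (length value 148) and 0.274 on ENSMUST00000160966.2 (length value 20). On the 151 row footprints were 32.5 and 37.3 CPM in WT, 21.6 and 25.2 in the Het libraries and 4.87 and 3.72 in KO, which rest on 67 and 36 KO counts. KO was 12.3% of WT there, from 9.97% to 15.0% over pairs. On the 92 row they were 19.3 and 18.3 CPM in WT, 12.1 and 14.8 in the Het libraries and 4.07 and 2.79 in KO, from 56 and 27 KO counts. KO was 18.3% of WT, from 14.5% to 22.3% over pairs, a range that did not reach that of the 897 row.

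RNA on the 151 and 92 rows was highest in Het and lowest in KO. On the 151 row it was 65.7 and 70.2 CPM in WT, 82.7 and 98.7 in the Het libraries and 61.1 and 55.8 in KO. On the 92 row it was the same in WT, at 15 and 14 counts, and 82.7 and 95.2 CPM in the Het libraries and 56.7 and 54.0 in KO. KO RNA was thus 86.0% of WT on the 151 row and 81.5% on the 92 row, against 116% on the 897 row. The KO and WT libraries did not overlap on either short row, but each WT value rests on 14 or 15 counts.

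**Figure D2:**
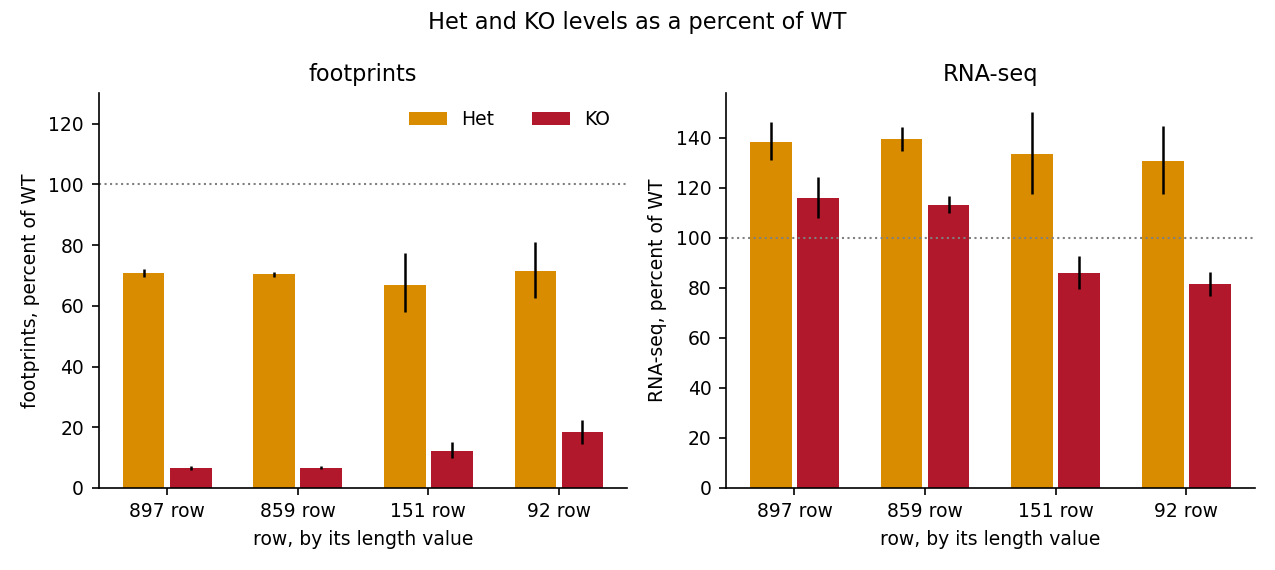
Het and KO levels as a percent of the WT mean on the 4 rows, footprints on the left and RNA-seq on the right; bars are ratios of means and lines span the 4 pairs of libraries. KO footprints run from 6.54% on the 897 row to 18.3% on the 92 row, and Het footprints lie between 67.0% and 71.5% on each.

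Per 100 units of the length value, if that value is a length, WT footprints were 13.9 CPM on the 897 row, 14.0 on the 859 row, 23.1 on the 151 row and 20.4 on the 92 row. In KO these levels were 0.912, 0.934, 2.84 and 3.73 CPM. The remaining KO footprints were therefore denser on the 151 and 92 rows than on the 897 and 859 rows by more than in WT. WT RNA per 100 units was 16.4 CPM on the 897 row, 45.0 on the 151 row and 73.9 on the 92 row, so RNA-seq reads were also unevenly spread over the rows.

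The remaining KO footprints were set against those on the 897 row. A shorter row never had more counts than the longer row it was compared with, in any of the 12 libraries, which nested rows would show but which does not prove nesting. If the 92 row lies within the 897 row, it took 15.1% and 14.9% of the latter's footprints in WT, 13.6% and 16.7% for Het, and 46.7% and 36.5% in KO, for 10.3% of its length value. Wilson 95% intervals were 13.1% to 17.4% and 11.6% to 19.0% in WT, and 38.0% to 55.6% and 26.4% to 47.9% in KO. Both KO libraries lay above the WT and Het libraries. These are the counts the rows were chosen by, so the intervals describe counting error and test nothing.

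In RNA-seq the 92 row had 15 of 35 and 14 of 28 counts in WT, 33 of 82 and 27 of 57 for Het, and 26 of 80 and 30 of 92 in KO, the last 32.5% and 32.6%. RNA therefore did not show the higher share of the 92 row in KO that footprints showed. Footprints on the 897 row beyond those on the 92 row were 106 ± 2.7 CPM in WT, 75.0 ± 1.9 for Het and 4.75 ± 0.14 in KO (SD, n = 2), so that the rest of the 897 row kept 4.47% of its WT level. The stretch by which the 151 row exceeds the 92 row held 166 footprint counts in WT and 20 in KO, and kept 5.36% of its WT level in CPM. These values are a description too, and hold only if the rows are nested.

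**Figure D3:**
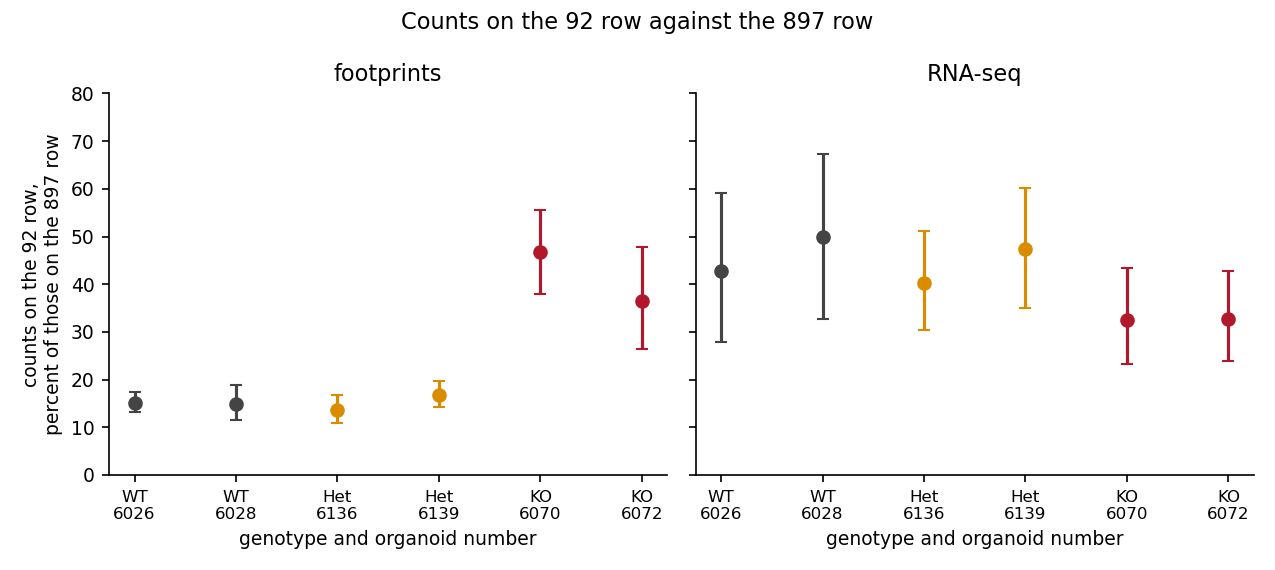
Counts on the 92 row as a percent of those on the 897 row in each library, footprints on the left and RNA-seq on the right, with Wilson 95% intervals that cover counting error only. The 2 KO footprint libraries stand at 46.7% and 36.5%, above the 4 other footprint libraries, whereas in RNA-seq the intervals of all 6 libraries overlap. The number under each genotype is the one in the library title.

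Of 51 rows in the window, 16 had any count and 12 of these missed the rule. ENSMUST00000163014.2, with a length value of 148, lay in the window and missed the count minimum, so it is not one of the 4 rows. Its footprints were 98 and 23 counts in WT, 30 and 51 in the Het libraries and 2 and 3 in KO, and by pooled counts KO stood at a ratio of 0.020. It had 1 and 1 RNA counts in WT, 1 and 0 in the Het libraries and 3 and 5 in KO, too few to compare. If it lies within the 897 row it took 9.27% and 6.35% of the footprints in WT but 1.67% and 4.05% in KO. Both KO shares lay below both WT shares, and by pooled counts the share was 2.58% in KO against 8.53% in WT. Wilson 95% intervals were 7.67% to 11.2% and 4.27% to 9.35% in WT, and 0.458% to 5.87% and 1.39% to 11.3% in KO. The first KO interval lay below the first WT interval, and the other pairs overlapped. The KO shares rest on 2 and 3 counts, and the difference was not tested. ENSMUST00000160966.2, with a length value of 20, had 24 and 4 footprint counts in WT and 9 and 7 in KO, and no RNA count in any library.

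Around the ratio threshold the nearest rows were the 92 row inside, at 0.186 by pooled counts, and ENSMUST00000160966.2 outside, at 0.274 and below the count minimum too. The only other row in the window with at least 200 pooled WT footprint counts was ENSMUST00000005749.6, 9 rows before the 897 row. Its footprints were 86.9 and 82.6 CPM in WT, 90.5 and 86.5 in the Het libraries and 87.4 and 88.8 in KO. Its KO to WT ratio was 1.03, and its RNA was 109 and 125 CPM in WT, 113 and 102 in the Het libraries and 85.1 and 115 in KO. The low KO footprints thus did not extend to this neighbouring row.

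The Het libraries were not used in choosing the rows, and the dose of the locus in Het was tested against WT, whose libraries were used. The rule favours rows with high WT footprint counts, which can enlarge a fall in Het. The p-values below are thus not independent of that choice. Footprints on the 897 row fell by 0.50 on the log2 scale in Het (SE 0.073, 95% interval -0.65 to -0.35), with an adjusted p of 0.00118 by edgeR's quasi-likelihood test over 20495 transcript groups. Het footprints were 70.8% of WT, from 69.4% to 72.2% over pairs. The Het level of 88.4 CPM lay above 66.6 CPM, the midpoint of WT and KO, and the step from WT to Het was 31.3% of that from WT to KO. The test called 0.566% of all groups lower in Het, 0.644% higher and 1.21% in either direction.

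The other 3 rows had Het changes from -0.52 to -0.47. The 151 row fell by 0.52 (SE 0.13, edgeR adjusted p 0.0495), a call at the edge of the threshold that was lost on leaving out any 1 of the 4 WT and Het libraries (edgeR adjusted p from 0.0610 to 0.294). The change of the 92 row was -0.47 (SE 0.16, 95% interval -0.82 to -0.13, edgeR adjusted p 0.228), which is no call. With every row tested apart, the 859 row changed by -0.50 (edgeR adjusted p 0.00121), with nearly the same counts as the 897 row. Outside the 4 rows, ENSMUST00000163014.2 had a change of -0.87 (95% interval -1.37 to -0.37, edgeR adjusted p 0.0956), also no call. The neighbouring ENSMUST00000005749.6 had a footprint change of 0.06 (95% interval -0.10 to 0.22, edgeR adjusted p 0.856). Of the 3 transcript groups that held the 4 rows, 2 were called lower, where the test called 0.566% of all groups lower. These 2 include the edge call of the 151 row. The 3 groups were chosen partly on WT footprint counts, and reads may be shared between them, which was not tested.

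RNA in Het was 138% of WT by CPM on the 897 row, from 131% to 146% over pairs, with both Het libraries above both WT libraries. With the library scaling that the test used (TMM), Het RNA was 131% of WT. The log2 change of 0.38 was not called (SE 0.23, 95% interval -0.08 to 0.85, edgeR adjusted p 0.438), where the test called 0.587% of 7493 groups higher in Het, 1.11% lower and 1.69% in either direction. The changes were 0.32 on the 151 row and 0.29 on the 92 row, neither of them called (edgeR adjusted p 0.694 and 0.719). At the depth of these RNA-seq libraries, an RNA level in Het from slightly below WT to 0.85 above it on the log2 scale lay within the interval.

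The ribosome density in Het, the footprint change minus the RNA change, was -0.89 on the 897 row (SE 0.23, 95% interval -1.36 to -0.42). It was not called after adjustment over 19569 groups (edgeR adjusted p 0.181, unadjusted p 0.000371). The test called 9 groups, or 0.046%, with 0.0256% lower and 0.0204% higher, while 1587 passed an unadjusted p under 0.05. The 151 and 92 rows had density changes of -0.86 and -0.78 (edgeR adjusted p 0.512 and 0.595). The median density change over all groups was -0.07.

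In the whole series, 36 of 8214 transcript groups with at least 200 pooled WT footprint counts (0.438%) had a KO to WT ratio below 0.25, and the median ratio was 1.01. The 897 row stood at 0.066, and 3 groups stood lower, with 207 to 413 pooled WT footprint counts against 1419 here. The locus was therefore among the deepest footprint losses but not the deepest by this ratio. By pooled counts, Het was 0.701 of WT on the 897 row, against a median of 0.993 over all groups and 0.709 over the 36 with a low KO ratio. Those 36 were picked on a ratio over the same WT libraries, which can by itself lower their Het ratio. Of those 36 groups, 17 had a lower Het ratio than the 897 row, so its Het level was near the middle of theirs.

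The plot of KO over WT changes sets footprints beside RNA. On the log2 scale of mean CPM + 1, the 897 row changed by -3.78 in footprints and 0.21 in RNA. Of 3024 groups with at least 200 pooled WT footprint counts and at least 20 pooled WT RNA counts, 1 had a lower footprint change. That group was at -3.95 in footprints and -2.58 in RNA.

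**Figure D4:**
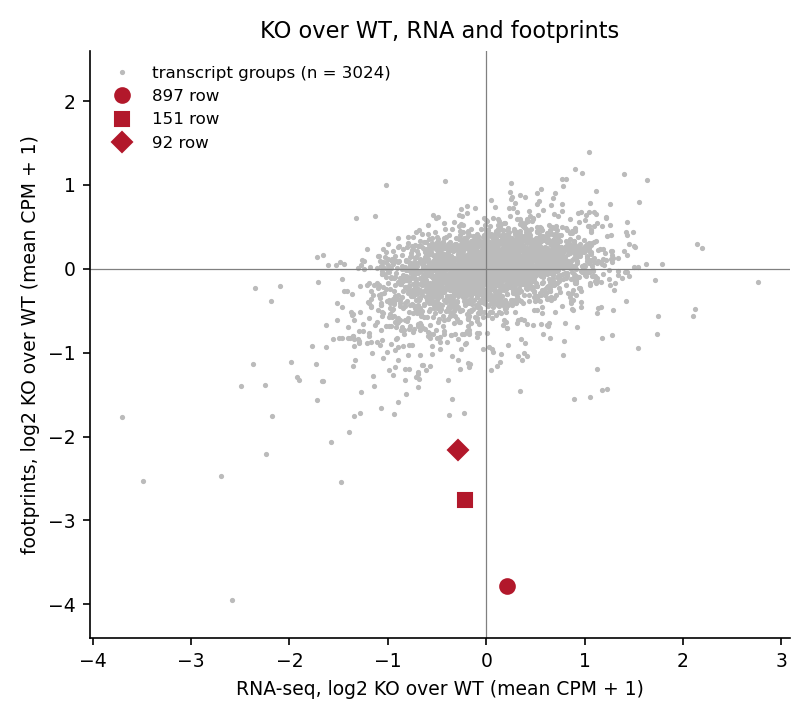
KO over WT changes in RNA-seq (horizontal) and footprints (vertical), as log2 ratios of mean CPM + 1, for 3024 transcript groups in grey and the groups of the 897, 151 and 92 rows in red. The red points lie at -3.78, -2.76 and -2.16 in footprints and at 0.21, -0.21 and -0.29 in RNA.

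The 2 transcript groups outside the window whose profiles were most like that of the 897 row were ENSMUST00000210433.2 and ENSMUST00000218183.2. Likeness was the root mean square difference of log2(CPM + 1) over the 12 libraries, each assay centred on its own mean, which was 0.65 and 0.68 for these 2 against a median of 1.22 over 3023 groups. Footprints on ENSMUST00000210433.2 were 23.5 ± 0.67 CPM in WT, 21.4 ± 3.9 for Het and 3.22 ± 0.55 in KO (SD, n = 2), and its RNA also was lower in KO, at 30.8 ± 2.8 CPM against 87.4 ± 31 in WT. Footprints on ENSMUST00000218183.2 were 31.6 ± 3.7 CPM in WT, 27.5 ± 1.2 for Het and 8.91 ± 1.1 in KO (SD, n = 2), and its RNA was 186 ± 22 CPM in WT, 181 ± 46 for Het and 159 ± 19 in KO. The Het level of both lay nearer to WT than that of the 897 row did, and the files pair neither ID with a gene.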

How the data were processed

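Each of the 12 libraries has 1 table, and the values are raw counts per transcript row, as deposited by the authors. The deposited tables have no header line, so the second number of each row, the length value, is not explained. RNA-seq used a stranded kit and ribosome profiling RNase I digestion, per the labels' protocols. CASAVA 1.8, cutadapt 3.7, UMI-tools 1.1.2, STAR 2.7.0a and build mm39 are named in the submitters' processing notes, with no role or order. The counting tool and its use of strand are not given in the sources used here.

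Rows were joined into 40818 transcript groups. Pairs of rows at most 25 places apart in the list of counted rows, each holding 24 counts or more, were joined if their profiles matched, with a chi-square under 3.05 or an SD of their log2 ratio under 0.15. Rows of identical counts were linked from 6 counts. The row with most counts stood for its group. CPM used the total over groups. Het vs WT was tested with edgeR 4.0.16 (R 4.3.3), using TMM scaling, filterByExpr, the quasi-likelihood F test, all genotypes in 1 fit and two-sided p-values with Benjamini-Hochberg adjustment, called under 0.05. Density was the genotype by assay interaction over all libraries. The scripts were tested on simulated counts. DESeq2 1.42.0 was an alternative. Wilson intervals cover counting error only.

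The members, lists and tests were chosen with earlier results of these data known. Named rows were all members, the nearest rows at the threshold and the 2 most similar groups. The planned lists of initiation factors and cell markers were not run, since transcript IDs had no paired gene names.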

Additional observations from a re-analysis of the deposited data

How the results depend on the processing

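In the Het vs WT fits, the 897 row kept its direction and its call or lack of one under each alternative that gave an adjusted p. Its Het vs WT footprint change lay between -0.51 and -0.47 over 10 alternatives (adjusted p 2.51e-06 to 0.0392). Its density change lay between -0.97 and -0.83 over 11 (adjusted p 0.0768 to 0.861) and its RNA change between 0.30 and 0.55 over 9. The 4 WT and Het libraries left out in turn gave -0.51 to -0.47, -0.92 to -0.86 and 0.30 to 0.45. DESeq2 gave no adjusted p for its RNA, and the direction of that run was not recorded. The footprint call of the 151 row was lost in 7 of 9 alternatives. With TMM scaling Het RNA was 131% of WT and KO RNA 111%. KO footprints stayed between 6.11% and 6.98% of WT over 7 alternatives.

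With at least 400 WT counts the rule found 2 rows. Each WT and KO footprint library left out in turn gave 2 to 4, because a single WT library holds fewer counts to meet the minimum, with 2 when the deeper WT library was left out. Counts of groups called in Het vs WT moved more. DESeq2 called 68 in footprints, 37 in RNA and 38 in density, against 248, 127 and 9. Footprints gave 592 without a count filter and 123 with only WT and Het fitted. Testing every row gave 349 in RNA and 28 in density, and joining only identical rows 294 and 18, where rows of like counts are by construction tested apart. With each WT and Het number left out in turn the counts were 67 to 296 in footprints, 34 to 176 in RNA and 1 to 19 in density, the lowest without the higher-numbered Het libraries in footprints and without the lower-numbered in RNA and density. The cause was not tested.

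The number in the library titles as a replicate block gave 17 density calls and a density change of -0.88 on the 897 row (edgeR adjusted p 0.202). Between the assays, libraries of the same number correlated in their deviations at r of 0.065 in WT, 0.146 in Het and 0.040 in KO over 1385 groups. Pairing was therefore not taken as shown. RNA depth limits what RNA and density can show, with 28 to 92 counts on the 897 row.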
